A study of Mus musculus with 6 samples.

Results

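The 10 genes described here encode the core of the mouse microRNA machinery: the scaffold proteins Tnrc6a, Tnrc6b and Tnrc6c, the Argonaute proteins Ago1, Ago2, Ago3 and Ago4, and the processing proteins Dicer1, Drosha and Dgcr8. They were listed by name because Tnrc6b had among the lowest p-values for the difference between cells given the CHD4-APR peptide and cells given the control peptide (CTRL). They were therefore selected on that difference, and their values in it are given as a description from which nothing is inferred. All 10 were found among the 48709 genes of the count table, and 9 of them were among the 12722 genes that passed the filter on low counts and were tested. Ago4 did not pass.

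The libraries came from G1E-ER4, cultured mouse cells at an early stage of the red cell lineage. G1E cells lack a working Gata1 gene of their own, and the ER4 derivative carries a GATA-1 protein that works only when tamoxifen is present, through a hormone receptor segment, so the drug sets the time at which red cell maturation begins. Every library came from cells that received 10 μM of a peptide carrying the cell-entry sequence Tat, then tamoxifen after 2 h, and that were collected after a further 28 h. The peptide was CHD4-APR, named for the chromatin remodelling ATPase CHD4, in 3 libraries and a run of alanines in the 3 CTRL libraries. There were no cells without peptide or without tamoxifen, a single cell line was used, and nothing in the labels says that the replicates were separate cultures, so p-values measure the spread between these libraries, which may be technical. The stated tamoxifen concentration was 100 nM in the culture protocol and 100 μM in the series design.

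MicroRNAs are short RNAs cut from longer transcripts. In the nucleus Drosha, with its RNA-binding partner Dgcr8, releases a hairpin from the primary transcript, and in the cytoplasm Dicer1 cuts the hairpin to a duplex from which a single strand is loaded into an Argonaute protein. The loaded Argonaute finds its targets mainly through bases 2 to 8 of the microRNA, called the seed, and binds a TNRC6 protein, which recruits the enzymes that shorten the poly(A) tail and remove the cap of the target. In red cell precursors miR-144 and miR-451a are made from a single primary transcript that GATA-1 activates, and miR-451a is unusual in being matured by the cutting activity of Ago2 without Dicer1.

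The sequences of these microRNAs, of the let-7 family and of miR-103 and miR-107, which are known to target Dicer1, are shown because the machinery acts through them. They were taken from RefSeq on GRCm38.p6 and are written 5′ to 3′ with the seed in capitals.
miR-451a (chr11:78073186-78073207, plus strand): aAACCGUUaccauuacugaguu
miR-144-3p (chr11:78073047-78073066, plus strand): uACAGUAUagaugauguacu
let-7a-5p (chr13:48538239-48538260, minus strand): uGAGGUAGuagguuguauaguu
miR-103-3p (chr2:131288103-131288125, plus strand): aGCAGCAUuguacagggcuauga
miR-107-3p (chr19:34820700-34820722, minus strand): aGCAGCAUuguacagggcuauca
The last pair share a seed, and the other microRNAs each have a seed of their own. Mature microRNAs were not measured in these libraries, which were made from poly(A) RNA.

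Members of the machinery also host microRNAs in their own exons. The hairpin of miR-1306 lies in an exon of Dgcr8, with 79 bases of shared exon, and that of miR-5113 lies in an exon of Tnrc6b, with 82 bases. The annotation also lists the microRNA genes Gm24572, sharing 88 exonic bases with Dgcr8, and Gm47288, sharing 72 with Drosha. The genes of miR-1306 and miR-5113 were listed at 0 counts in all 6 libraries. Reads there also lie in the exons of Dgcr8 and Tnrc6b, and how reads of overlapping genes were assigned is not given. A count of 0 therefore does not show that the hairpin RNA was absent.
miR-1306-5p (chr16:18284288-18284310, minus strand): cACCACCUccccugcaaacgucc
miR-1306-3p (chr16:18284248-18284268, minus strand): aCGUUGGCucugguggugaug
miR-5113 (chr15:80940049-80940071, plus strand): aCAGAGGAggagagagauccugu

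A target site was counted as an exact match to the complement of seed bases 2 to 8 in the 3′ untranslated region (UTR) of each gene's longest coding transcript (GENCODE M21). The match for miR-103 and miR-107, ATGCTGC, was present in 8 of the 10 genes, all but Drosha and Tnrc6a, and in 12% of the 10090 tested genes with such a region. The matches for miR-144-3p (ATACTGT), let-7 (CTACCTC) and miR-451a (AACGGTT) were present in 4, 2 and 0 of the 10 genes, and in 12.8%, 9.91% and 1.67% of those tested genes. The 3′UTRs of these genes were long, at 11064 bases in Ago2, 11609 in Tnrc6b and 12742 in Ago3 against a median of 1060 over the tested genes, and a longer sequence holds more matches of any kind. Drosha had the shortest, at 168 bases, and no match.

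The matches in Dicer1, Tnrc6b and Ago2 are shown because these genes hold the cutting enzyme known as a target of miR-103 and the 2 tested members with the largest log2 fold changes. All 10 matches in these genes are listed, each as mRNA sequence written as DNA, with the match in capitals.
Dicer1, miR-103: tgcttcatgtaATGCTGCacttaggttca
Dicer1, miR-144-3p: tagtttgaatcATACTGTgatttacccag
Tnrc6b, miR-103, first site: cttgttggcacATGCTGCctgtgagggtg
Tnrc6b, miR-103, second site: tggagatacaaATGCTGCtttgggttcca
Ago2, miR-103, first site: ccccctttagtATGCTGCatatggatatg
Ago2, miR-103, second site: cttttatattcATGCTGCttctagtccct
Ago2, miR-144-3p: gtgtgagtgccATACTGTgatctggggcc
Ago2, let-7, first site: atgcataaaagCTACCTCtgacttctcat
Ago2, let-7, second site: tggcctctgtcCTACCTCcaggcactggc
Ago2, let-7, last site: acaatgtggatCTACCTCagttaaacagt
A match is a description of the sequence, and binding was not measured.

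The libraries held 41687482 to 49784177 counts in the CTRL group and 41945739 to 46888804 in the CHD4-APR group. Levels are given as normalized CPM, the count of a gene per 1000000 counts of its library after scaling by a factor that makes libraries comparable. Differences are log2 fold changes, CHD4-APR over CTRL, with their standard error (SE), from edgeR's quasi-likelihood test, and a gene is called changed where its false discovery rate (FDR) was under 0.05. Over all tested genes 38.3% were called, 20.4% higher and 17.8% lower with CHD4-APR, and in 49.9% the values of the groups did not overlap. Erythroid markers, globin genes included, summed to 69560 to 74997 CPM in CTRL and 58823 to 62884 CPM in CHD4-APR libraries, with 1 of 11 called higher and 5 lower. Markers of other lineages summed to 47.6 to 50.2 and 41.2 to 46.8 CPM (5 megakaryocyte genes, Ppbp at 0), 8.36 to 9.80 and 6.79 to 8.23 CPM (6 myeloid genes, Mpo at 0) and 0.304 to 0.590 and 0.328 to 0.604 CPM (5 lymphoid genes, Cd3e, Cd8a and Ptprc at 0), in the same order. The part of the erythroid difference in the results below was not tested, and in bulk RNA fewer cells of a type and less RNA per cell cannot be told apart.

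The TNRC6 scaffolds were all called higher with CHD4-APR and Tnrc6b differed most, but with the length and GC correction described below the calls of Tnrc6a, at 0.033, and Tnrc6c, at 0.12, were lost. Tnrc6b was at 143.1, 147.6 and 149.0 CPM in the CTRL libraries and at 220.3, 222.2 and 209.0 CPM in the CHD4-APR libraries. Means were 147 ± 3.08 and 217 ± 7.12 CPM (SD, n = 3 each), with a log2 fold change of 0.57 (SE 0.043). The p-value of Tnrc6b was number 11 of 12722 in rising order, and the list was built around the gene because of this low value. Tnrc6b lies on the plus strand at chr15:80711313-80941085 (GRCm38).

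Tnrc6a, on chr7:123123885-123195296, was at 91.0, 96.9 and 101.9 CPM in CTRL and at 118.9, 116.2 and 113.3 CPM in CHD4-APR libraries. Its lowest CHD4-APR library was above its highest CTRL library, and the log2 fold change was 0.27 (SE 0.049). Tnrc6c, on chr11:117654289-117763439, was at 67.5, 75.8 and 74.5 CPM against 86.1, 90.5 and 84.8 CPM. Here too the groups did not overlap, with a log2 fold change of 0.26 (SE 0.052).

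Among the Argonautes, Ago2 is the member able to cut a target RNA, and its log2 fold change was next to that of Tnrc6b among the 9 tested genes, and above it with the length and GC correction described below. It was at 263.2, 287.6 and 281.9 CPM in CTRL and at 394.3, 404.1 and 381.4 CPM in CHD4-APR libraries. Means were 278 ± 12.8 and 393 ± 11.4 CPM (SD, n = 3 each), the log2 fold change was 0.50 (SE 0.045), and the p-value was number 51 in rising order. Ago2 lies at chr15:73095844-73184935 on the minus strand, on the same chromosome as Tnrc6b and Drosha.

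Ago1, Ago3 and Ago4 lie side by side on the minus strand within 201.8 kb of chromosome 4 (chr4:126331704-126533472). Ago1 was at 29.8, 33.8 and 32.8 CPM in CTRL and at 39.6, 39.3 and 35.4 CPM in CHD4-APR libraries, without overlap, and its log2 fold change was 0.24 (SE 0.064). Ago3 was at 14.9, 14.8 and 16.2 CPM against 19.1, 18.0 and 17.4 CPM, a log2 fold change of 0.25 (SE 0.071). The Ago3 groups were also separate, but the call was lost without CHD4-APR replicate 1, where the log2 fold change was 0.21 (edgeR's quasi-likelihood test, FDR 0.0535), and with the length and GC correction, where it turned to -0.14 (FDR 0.153). Ago4 had 7, 10 and 9 counts in CTRL and 4, 6 and 5 in CHD4-APR libraries, which was too few to test. The neighbouring genes of this cluster thus differed widely in level.

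Without the length and GC correction described below, the processing genes differed least. Drosha, which opens the pathway, was at 108.4, 109.1 and 107.1 CPM in CTRL and 115.0, 114.6 and 117.9 CPM in CHD4-APR libraries. Its groups were separate, but the log2 fold change of 0.098 (SE 0.042) was not called. Dgcr8, which recognises the primary hairpin with Drosha, was at 34.1, 36.9 and 33.1 CPM against 32.5, 36.1 and 36.2 CPM. Its groups overlapped, which was so for no other tested member, and the log2 fold change was 0.0091 (SE 0.063), running from -0.024 to 0.063 as each library was left out. Dicer1 was at 75.9, 84.4 and 82.4 CPM against 89.7, 89.2 and 85.1 CPM, a log2 fold change of 0.12 (SE 0.050). The Dicer1 groups were separated by less than the spread within CTRL, and the gene was not called, although without CTRL replicate 2 its log2 fold change was 0.15 and it was called (edgeR's quasi-likelihood test, FDR 0.0333).

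**Figure D1:**
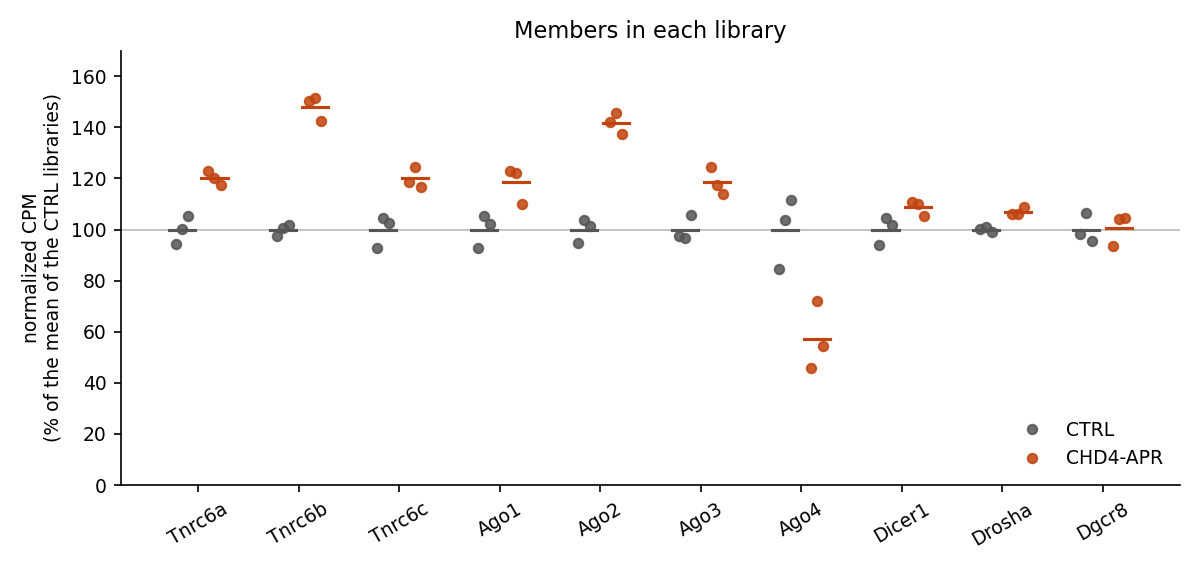
Normalized CPM of each of the 10 genes as a percent of the mean of its CTRL libraries. Points are the 3 libraries of each group (grey CTRL, red CHD4-APR) and bars are group means. The groups are apart for 8 of the 9 tested genes and overlap for Dgcr8, and Ago4 rests on 4 to 10 counts a library.

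All 9 tested members had a log2 fold change above 0, from 0.0091 to 0.57 with a median of 0.25, where the median of all tested genes was -0.012, although Dgcr8 fell below 0 with upper quartile scaling and Dgcr8, Ago3 and Dicer1 did with the correction given below. Of the 9, 6 (66.7%) were called higher and 0 lower, and in 8 the groups did not overlap. The list was built around a gene with a low p-value in this contrast, so these counts stand beside the 20.4%, 17.8% and 49.9% of all genes given above only as a description. Their summed level was 828 to 887 CPM in CTRL and 1081 to 1130 CPM in CHD4-APR libraries.

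All 10 genes are long, and fold changes were higher in longer genes over the whole table. Their exonic lengths ran from 5935 bases in Drosha to 23677 in Tnrc6b, all above the median of 3688 bases of tested genes. The median log2 fold change was -0.18 over the 1572 tested genes of up to 1000 exonic bases, 0.045 over the 4097 genes of 4000 to 8000 bases, 0.20 over the 1545 genes of 8000 to 16000 bases and 0.30 over the 203 longer ones. Of the 3269 tested genes at least as long as Drosha, 45.9% were called higher and 6.06% lower, with a median log2 fold change of 0.15.

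**Figure D2:**
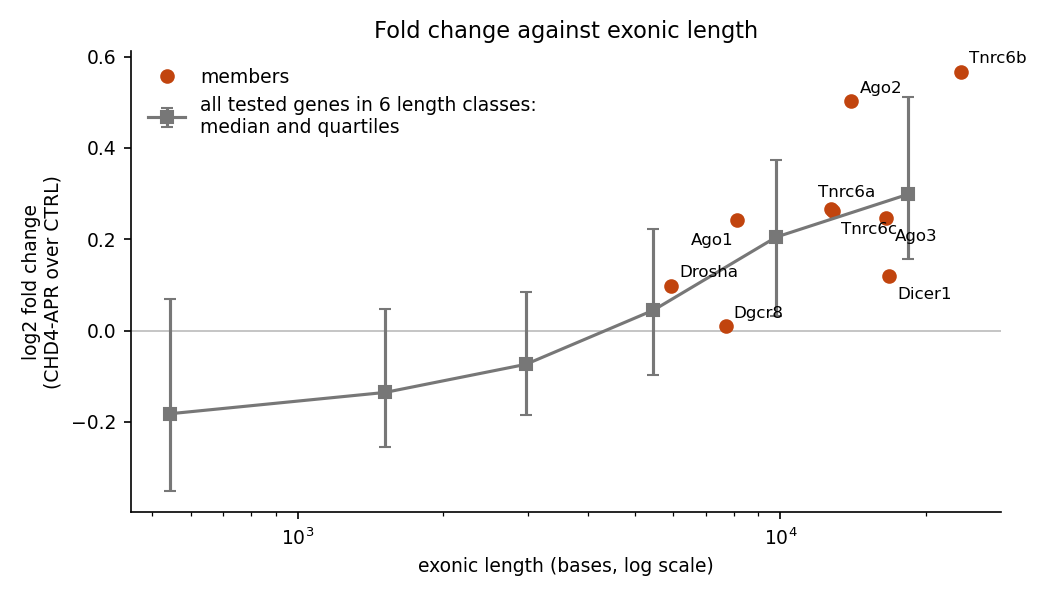
Log2 fold change (CHD4-APR over CTRL) against exonic length in bases on a log axis. Grey squares and bars are the medians and quartiles of all tested genes in 6 length classes, and red points are the 9 tested members. The class medians climb from -0.18 to 0.30. Tnrc6a, Tnrc6b, Tnrc6c, Ago1, Ago2 and Drosha lie above the medians of their classes, while Ago3, Dicer1 and Dgcr8 lie below.

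Each library was then corrected for its trend with exonic length and GC content. After correction 11.7% of all tested genes were called higher and 15.9% lower, and of the 9 members 3 were called higher and 1 lower, with a median of 0.084. Ago2 remained higher, with a corrected log2 fold change of 0.30 (SE 0.035), as did Tnrc6b at 0.25 (SE 0.035) and Ago1 at 0.16 (SE 0.057). Dicer1, which was not called before correction, was called lower at -0.15 (SE 0.038). The other 5 were not called in this fit, at 0.12 for Tnrc6c, 0.084 for Drosha, 0.033 for Tnrc6a, -0.13 for Dgcr8 and -0.14 for Ago3, although Tnrc6c was called at 0.13 when the replicate number was added as a block (edgeR's quasi-likelihood test, FDR 0.0150). The direction given above for Dicer1 and Ago3 thus turned with the correction, as did that of Dgcr8, whose sign was already unsettled without it. Whether the trend with length came from the cells or from the libraries was not tested.

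**Figure D3:**
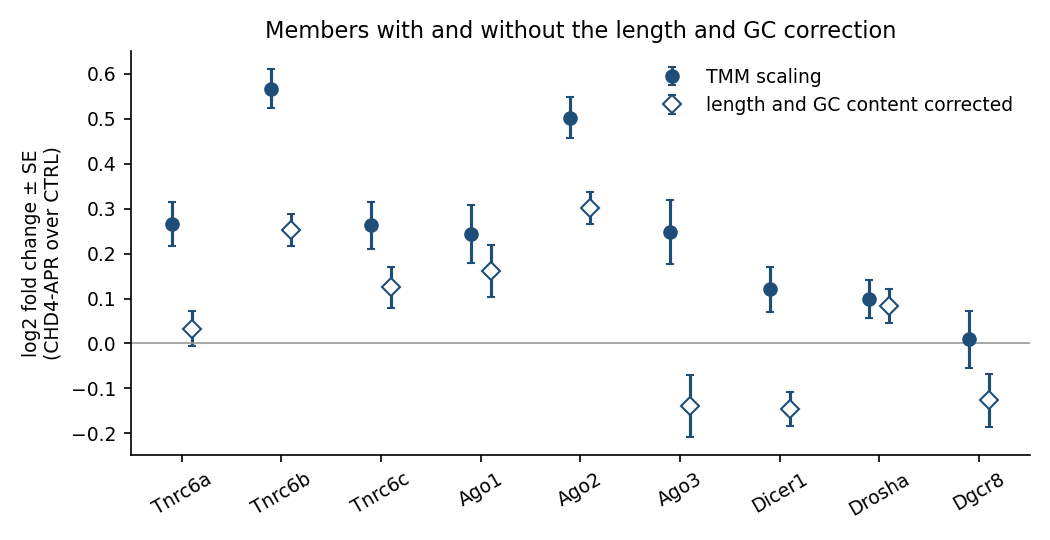
Log2 fold changes (CHD4-APR over CTRL) of the 9 tested members before and after correction for exonic length and GC content, with bars of 1 SE. After correction Tnrc6b moves from 0.57 to 0.25, Ago2 from 0.50 to 0.30 and Tnrc6a from 0.27 to 0.033, and Dicer1, Ago3 and Dgcr8 move below 0.

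Levels of different genes were compared as normalized CPM per kilobase of exonic length, counted over all annotated exons of a gene. This length can exceed that of a transcript. It was 5935 bases for Drosha and 14031 for Ago2, against 4570 and 13800 in their longest coding transcripts. The order of genes, their percentiles and the family shares below depend on that choice, and other lengths were not tried. In CTRL libraries Ago2 was highest at 19.8 ± 0.910 and Drosha next at 18.2 ± 0.174 CPM per kb (SD, n = 3). Tnrc6a followed at 7.60, Tnrc6b at 6.19, Tnrc6c at 5.65, Dicer1 at 4.83, Dgcr8 at 4.51, Ago1 at 3.96, Ago3 at 0.924 and Ago4 at 0.0281 CPM per kb. In this order the libraries of neighbouring genes overlapped only between Dicer1 and Dgcr8. The median of all tested genes was 5.01 CPM per kb, with Ago2 and Drosha at percentiles 78.7 and 77.2 of all tested genes and Ago3 at percentile 21.9.

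In CHD4-APR libraries Ago2 reached 28.0 ± 0.811 CPM per kb and Drosha 19.5 ± 0.299. Tnrc6b, at 9.17 ± 0.301 CPM per kb, drew level with Tnrc6a at 9.14 ± 0.220, and Ago1 at 4.69 ± 0.285 drew level with Dgcr8 at 4.54 ± 0.279, with overlapping libraries in both pairs. Tnrc6c, Dicer1, Ago3 and Ago4 kept their places, at 6.78, 5.25, 1.10 and 0.0161 CPM per kb.

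**Figure D4:**
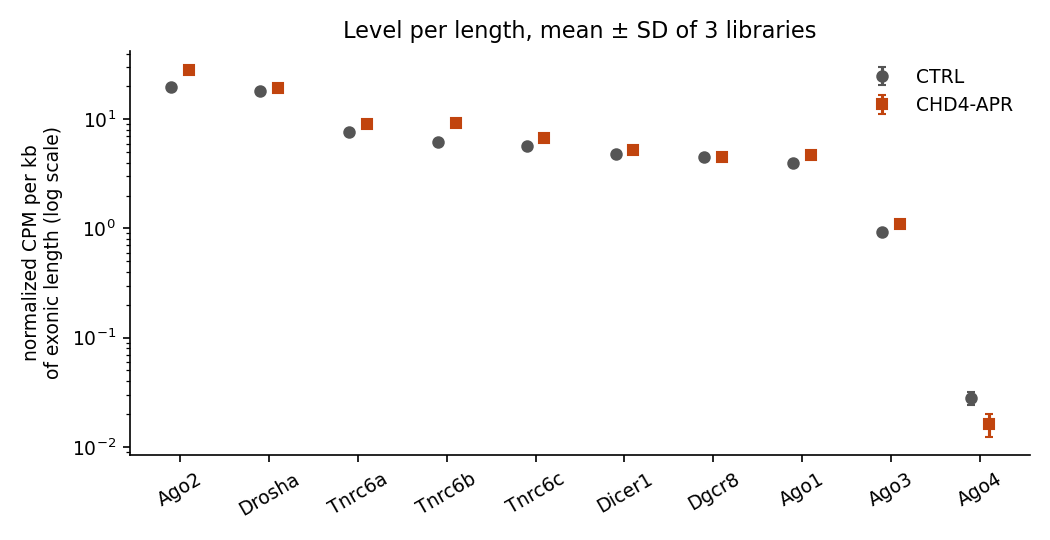
Normalized CPM per kilobase of exonic length for each gene on a log axis, as mean ± SD of the 3 libraries of each group (grey circles CTRL, red squares CHD4-APR). Most SD bars are smaller than the symbols. Ago2 and Drosha stand above the others in both groups, and Ago4 is lowest at 0.0281 and 0.0161 CPM per kb.

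Within the families the make-up shifted towards the members that differed most. The TNRC6 sum went from 19.4 ± 0.874 to 25.1 ± 0.657 CPM per kb. Tnrc6b made up 31.9% ± 0.781 of it in CTRL and 36.5% ± 0.247 in CHD4-APR libraries, while Tnrc6a went from 39.1% to 36.4% and Tnrc6c from 29.1% to 27.0%. The Argonaute sum went from 24.7 ± 1.18 to 33.8 ± 1.10 CPM per kb. Ago2 held 80.1% ± 0.197 of it in CTRL and 82.9% ± 0.517 in CHD4-APR libraries, Ago1 16.03% and 13.9%, Ago3 3.74% and 3.24%, and Ago4 0.113% and 0.0475% (SD, n = 3 throughout). These shares restate the differences of the single genes.

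Reads of overlapping genes may limit some of these values, and their effect on the counts was not measured. The library kit did not mark strand, which matters for overlaps on opposite strands. Exons of Dgcr8 share 825 bases with Trmt2a, and those of Ago2 share 219 bases with Chrac1, both on the opposite strand. On the same strand, Dgcr8 shares 327 exonic bases with Gm49776, Tnrc6a 143 with Gm45846 and Drosha 72 with Gm47288.

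The promoter of Tnrc6b is shown because the list was built around that gene. The 250 bases before its first start site (chr15:80711063-80711312, plus strand, GRCm38.p6, RefSeq) hold the CCAAT box 3 times as CCAAT and 1 time as its reverse complement, and 1 GC box (GGGCGG), all in capitals.
Tnrc6b promoter: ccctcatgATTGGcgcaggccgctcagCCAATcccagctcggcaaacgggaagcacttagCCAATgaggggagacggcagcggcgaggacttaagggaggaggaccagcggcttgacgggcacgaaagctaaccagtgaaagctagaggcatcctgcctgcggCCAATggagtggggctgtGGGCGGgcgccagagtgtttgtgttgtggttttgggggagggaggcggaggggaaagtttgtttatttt
RefSeq gave 11 promoter windows of 300 bases for 9 of the 10 genes, and none was matched to Ago2. The windows of Ago1, starting at 126468582 and 126468534, overlap. Both hold CCAAT and GGGCGG, and each is counted below. Searched on both strands, CCAAT was in 6 of the 11 and in 37.4% of 32851 promoters, GGGCGG in 7 and 35.7%, the ETS core CCGGAAG in 2 and 8.86%, and the GATA motif AGATAA in 0 and 11.2%. These windows were rich in G and C, with 9 of the 11 above the median of 52.67% for all promoters, and none of the 4 motifs is contained in another. The window of the first Tnrc6b start held 59.67% G and C and 18 CpG sites, against a median of 7.

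The machinery around these genes was followed with a list of 80 cofactors and effectors, of which 77 were tested. Wtip, Lin28a and Trim71 were listed at 0 counts in all 6 libraries, where a floor of 3 counts corresponds to 0.0608 to 0.0725 CPM. Of the 77, 31 (40.3%) were called higher and 9 (11.7%) lower, with a median log2 fold change of 0.076, beside the 20.4% and 17.8% of all genes. With the length and GC correction 21 (27.3%) were called higher, 18 of them also called higher before, and 15 (19.5%) lower, 7 of them called lower before, beside 11.7% and 15.9% of all genes. The share of calls that were higher thus went from 77.5% to 58.3%, where over all tested genes it went from 53.4% to 42.3%.

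By role, the 37 tested silencing effectors had 18 (48.6%) called higher and 2 (5.41%) lower, beside 20.4% and 17.8% of all genes. After correction they had 13 (35.1%) and 3 (8.11%), beside 11.7% and 15.9% of all genes. Fmr1, an RNA-binding translational repressor, was at 28.4, 35.7 and 32.8 CPM in CTRL and at 55.9, 60.6 and 56.5 CPM in CHD4-APR libraries. It rose by a log2 fold change of 0.84 (SE 0.070, edgeR's quasi-likelihood test, FDR 8.12e-07). Xrn1, the exonuclease that degrades decapped mRNA, rose by 0.73 (SE 0.074), Tob1, an adaptor of the deadenylase, by 0.71 (SE 0.10), and Pum2, a repressor that binds 3′UTRs, by 0.56 (SE 0.045). With the correction the values were 0.47 for Fmr1, 0.34 for Xrn1, 0.69 for Tob1 and 0.29 for Pum2, and each was still called. In a grouping made after the values were seen, 5 of 11 subunits of the CCR4-NOT deadenylase, which TNRC6 proteins recruit, were called higher and 1 lower, Cnot3 at -0.20 (SE 0.044), and after correction 1 and 1. Of 11 decapping and decay genes, 5 were called higher and 0 lower before correction, and 5 and 0 after it, with 4 genes called higher in both. Lsm14a lost its call and Edc4 gained its own.

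The steps before silencing were counted in the same way, to be read beside the same shares of all genes. Among 12 tested genes that trim, tail or stabilise microRNAs, 5 (41.7%) were called higher and 1 (8.33%) lower, and 2 (16.7%) and 3 (25%) after correction. Tut4, which adds uridines to precursor let-7, was the largest of them at 33.7 CPM in CTRL and 55.9 CPM in CHD4-APR libraries, a log2 fold change of 0.73 (SE 0.063, edgeR's quasi-likelihood test, FDR 9.18e-07), and of 0.43 with the correction, where it was still called. Of 14 cofactors of the nuclear step, 4 (28.6%) were called higher and 4 (28.6%) lower, and 2 (14.3%) and 7 (50%) after correction. Those called higher were Ddx5 at 0.27, Ddx17 at 0.23, Khsrp at 0.19 and Hnrnpa1 at 0.12, with Ddx17 and Khsrp still called after correction. Those called lower included Srrt, a partner of the cap-binding complex, at -0.22 (SE 0.046) and Ncbp2, a subunit of that complex, at -0.23 (SE 0.053). Of 7 export and dicing genes, 2 (28.6%) were called higher and 2 (28.6%) lower, and 2 and 1 after correction. Those called higher were Xpo1 at 0.44 (SE 0.067) and Xpo5 at 0.28 (SE 0.056). After correction they were at 0.14 and 0.22 and still called. Phax, an export adaptor, was at -0.23 (SE 0.062), and at -0.15 and not called after correction. Tarbp2, the RNA-binding partner of Dicer1, was at 35.4, 32.4 and 32.3 CPM against 28.5, 27.1 and 30.1 CPM, a log2 fold change of -0.22 (SE 0.062) that lost its call without CHD4-APR replicate 2 (edgeR's quasi-likelihood test, FDR 0.0703). Of 7 loading genes, 2 (28.6%) were called higher and 0 lower, and 2 and 1 after correction.

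The last list held genes known as hosts of microRNAs, with 26 of 32 tested. Dalrd3, among the tested, had 0 microRNA genes inside it in the annotation used. Of these 7 (26.9%) were called higher and 4 (15.4%) lower, with a median log2 fold change of 0.022, shares near the 20.4% and 17.8% of all genes. After correction 5 (19.2%) and 7 (26.9%) were called, beside 11.7% and 15.9% of all genes. Chm, which holds miR-361, rose by 0.85 (SE 0.095) from 7.56 to 13.7 CPM, Pank3, which holds miR-103-1, by 0.58 (SE 0.053) from 46.7 to 69.8 CPM, and Zranb2, which holds miR-186, by 0.50 (SE 0.050) from 123 to 174 CPM. Pank3 carries a copy of the miR-103 whose site is in 8 of the 10 genes. Pank2, the host of the other copy of miR-103, was not called, at 0.095, nor was Pank1, the host of miR-107, at 0.30. Mir22hg rose by 0.44 (SE 0.078) and Clcn5 by 0.33 (SE 0.065), the latter not called after correction. Mir142hg, the host of miR-142, which is active in blood cells, fell by 0.40 (SE 0.064) from 48.3 to 36.6 CPM, and Egfl7, Copz1 and Wwp2 fell by 0.20, 0.16 and 0.15 (SE 0.051, 0.041 and 0.040), Egfl7 not called after correction. With the correction Chm was at 0.50, Pank3 at 0.25, Zranb2 at 0.23 and Mir142hg at -0.18, each still called.

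**Figure D5:**
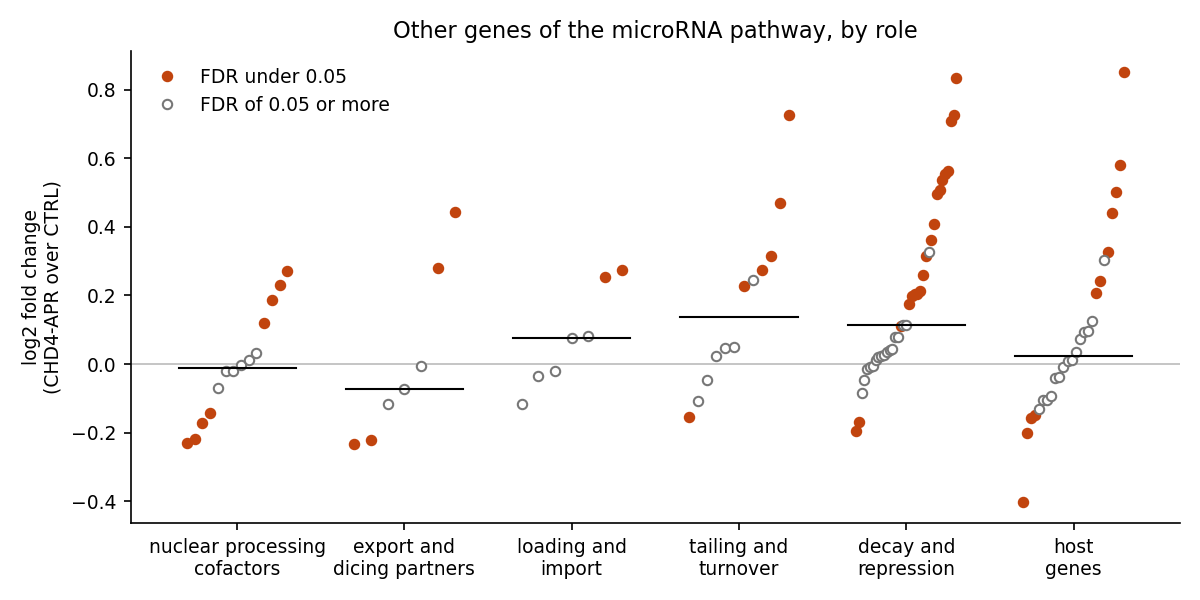
Log2 fold changes (CHD4-APR over CTRL) of the 77 tested cofactors and effectors, in 5 roles, and of the 26 tested host genes. Each point is a gene, filled where the FDR was under 0.05, and black lines are the medians. Decay and repression genes reach 0.84 with Fmr1, and host genes run from -0.40 for Mir142hg to 0.85 for Chm.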

How the data were processed

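Poly(A) RNA of G1E-ER4 cells was sequenced in 6 libraries, 3 per group. The authors trimmed reads with Cutadapt, aligned them to GRCm38 with STAR 2.7.10a and counted them per gene with featureCounts, and deposited raw counts, which are not normalized. The strand and multi-mapping settings are not given in the sources used here. The deposited table holds 2 further columns of per-sample values that were left out because their names fit no sample. Gene names, exonic lengths and GC content came from GENCODE M21 on GRCm38, which named 48349 of 48709 genes.

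Genes were filtered with filterByExpr, scaled by TMM and tested with edgeR 4.0.16 (glmQLFit and glmQLFTest, R 4.3.3) between CHD4-APR and CTRL, with Benjamini-Hochberg adjustment over the 12722 tested genes and a threshold of 0.05. The SE of each fold change was obtained from its F statistic. In a corrected fit, a smooth (mgcv 1.9.3) of log2 CPM (prior count 2) on exonic length and GC content, made for each library, entered as an offset. Procedures were tested on simulated data. Libraries of a group differed by more than sampling noise and none was counted as a repeat.

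The members and lists were chosen with earlier results of these data known. All 10 members are named, and of the other pathway genes and the host genes the 5 largest rises and the 5 largest falls past the threshold (only 4 hosts fell). Other names were chosen after their values were seen. Alternatives were upper quartile and RLE scaling, DESeq2 1.42.0, limma-voom (limma 3.58.1), other filters on low counts, an FDR of 0.01, the length and GC correction, the replicate block, and leaving out each library. Depth was 41687482 to 49784177 counts a library, and the floor of 3 counts covers counting error only.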

Additional observations from a re-analysis of the deposited data

How the results depend on the processing

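With the length and GC correction the median log2 fold change of the tested members moved from 0.25 to 0.084, and to 0.083 with the replicate block as well. Under both, Ago3 turned to -0.14 and -0.14, Dicer1 to -0.15 and -0.15, and Dgcr8 to -0.13 and -0.13. Without the correction Dgcr8 turned to -0.0079 with upper quartile scaling and ran from -0.024 to 0.063 when each library was left out. The cause of these turns was not tested. Over the alternatives other than the stricter FDR, 118 values of single members kept their direction and side of the threshold, 11 turned in direction, and of those that did not turn 4 lost the call and 2 gained it. Among those that turned, Ago3 lost its call and Dicer1 became called as lower in both corrected fits. Over the same alternatives, of the values for the largest rises and falls named from the pathway and host lists, 279 kept both and 6 lost the call.

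The count of members called stayed between 4 and 7, of pathway genes between 34 and 41, of host genes between 10 and 13, and of all genes between 3250 and 5214, each extreme of all genes being at an FDR of 0.01 and with the replicate block. At an FDR of 0.01, 5 members were called. The same replicate numbers occur in both groups. The deviations of same-numbered libraries correlated by 0.070, 0.055 and -0.035. Replicates 1 and 2 of CHD4-APR correlated best with the CTRL library of the same number, and replicate 3 with replicate 2 of CTRL. With 3 libraries in each group, correlations this small cannot settle whether the replicates were paired. With the replicate block 7 members were called, Dicer1 being added at 0.12, with 39 pathway genes, 12 host genes and 5214 genes in all.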

Other observations

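The count table also has 2202 rows for microRNA genes, which in poly(A) libraries do not measure mature microRNAs. Of these, 390 had a count and 71 were tested, with 3 (4.23%) called higher and 14 (19.7%) lower (edgeR's quasi-likelihood test), beside 20.4% and 17.8% of all tested genes. Mir451a had 40, 53 and 35 counts in CTRL and 38, 35 and 40 in CHD4-APR libraries, and Mir144 had 8, 7 and 13 against 17, 14 and 25, neither called, with FDRs of 0.561 and 0.0751. Mir186, inside Zranb2, had 14, 20 and 24 counts against 59, 50 and 44 and was called higher (FDR 0.00140), as its host was. Mir142, in Mir142hg, had 603, 618 and 513 counts against 496, 493 and 565 and was not called (FDR 0.0963). These 4 were chosen after their values were seen.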
